A study of Rattus norvegicus with 2 samples.

Results

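Oligoadenylate synthetases (Oas) were followed in 2 RNA-seq libraries of cultured rat oligodendrocyte precursor cells (OPCs), the glia from which myelinating oligodendrocytes form. The 9 genes considered were Oas1a, Oas1b, Oas1g, Oas1i, Oas1k, Oas2, Oas3, Oasl and Oasl2. They were selected by symbol with their reads in these same libraries already known, so every value below is a description and none is a test. Of the 9, 8 had a row among the 17049 genes of the expression table, and Oas1k was not analysed here. Both cultures were primary OPCs from wild-type adult rat brain, grown in OGM medium at 37 °C and 5% CO2. One received 1 µM amyloid-β (Aβ), the peptide that forms the plaques of Alzheimer's disease, for 2 days, and the control is labelled DMSO, a common solvent, although its protocol text repeats the Aβ exposure. Each condition had 1 library, of 15704932 estimated reads with Aβ and 15663751 in the control, so no difference had a replicate check. Intervals are 95% intervals of counting error only (exact Poisson for reads, exact Clopper-Pearson for ratios and shares), since reads that carry no molecular identifiers can be copies of one molecule. A ratio is Aβ over control in reads per library total.

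Oligoadenylate synthetases are interferon-induced sensors of double-stranded RNA, the replication intermediate of many viruses. Once bound to it, the active enzymes join ATP into 2′-5′-linked oligoadenylates (2-5A), short chains that set off the cutting of cellular and viral RNA. Oas1, Oas2 and Oas3 proteins carry increasing numbers of the synthetase unit, while Oasl and Oasl2 are Oas-like proteins with ubiquitin-like domains. Rodents have many Oas1 copies. In mice most Oas1 copies lack synthetase activity, and mouse Oas1b is known for its role in resistance to flaviviruses.

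Interferon acts on these genes through a short promoter element, the interferon-stimulated response element, bound by a complex that includes Stat2 and Irf9. Its core was searched here as GAAANNGAAA on both strands, with overlapping matches counted, in the 300 bases around each gene start (250 before, 50 after) that RefSeq gives for the GRCr8 assembly. Of the 8 members with a row, 6 had such a sequence, and Oas1g and Oas2 did not. Matches were found for 5 of the 6 (Oas1a, Oas1b, Oas1i, Oas3 and Oasl2), and 3.92% of 33469 promoters of that length hold one. Oasl held none in this window. The matches of these members follow as 30 bases each, 5′ to 3′ on the gene's own strand, with the matched bases in capitals. They show how closely the Oas1 copies resemble each other at this element.
Oas1a (chr12:41330418-41330447, + strand): ctctcggGAAATGGAAACTGAAAatcttgt
Oas1i (chr12:41285183-41285212, + strand): ctcccggGAAATCGAAACTGAAAatctggt
Oas1b (chr12:41395889-41395918, − strand): ttcccggGAAATGGAAACTGAAAaccctat
Oas3 (chr12:41439627-41439656, + strand): gcagagaggaGAAAACGAAAgtgaatgatc
Oasl2 (chr12:47383317-47383346, − strand): aaagctttggTTTCAGTTTCcaggcttgag
In Oas1a, Oas1i and Oas1b the capitals are 2 overlapping matches, which end 26, 21 and 44 bases before the start. The Oas3 match ends 86 bases before its start, and the Oasl2 match, which lies on the opposite strand, 142 bases before.

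The whole windows were also most alike among the Oas1 genes. In global alignments the Oas1a window was 76.5% identical to that of Oas1i and 73% to that of Oas1b, and Oas1b and Oas1i shared 67.6%. The other 12 pairs of members ranged from 44% to 49.5%. The octamer ATTTGCAT (either strand), an element known from other promoters as a site of POU-domain factors, was in the windows of these 3 Oas1 genes and in none of the other 3 members, against 1.78% of all promoters. It was chosen after the sequences were seen. The 9-base pattern TTCNNNGAA, the core of the gamma-activated site of interferon-γ signalling, was in the windows of Oas1a and Oas1b, and 8.87% of all promoters hold it. A match of letters shows no binding. In the order of genes on chromosome 12, RefSeq places Oas1i, Oas1d, Oas1a, Oas1h, Oas1f, Oas1b, Oas1e, Oas1k, Oas3 and Oas2 in one cluster, and Oasl beside Oasl2 in another place.

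Among the Oas1 genes, Oas1b (gene number 246268) had the most reads. It had 72 reads with Aβ (interval 56.3 to 90.7) and 126 in the control (105 to 150), or 4.45 and 7.79 TPM, a level corrected for gene length and library total. The control library was the higher, and the intervals of the 2 libraries did not overlap. The ratio was 0.57 (0.421 to 0.767).

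Oas1a (192281), the rat gene that carries the older name Oas1, was lower in the Aβ library too, on fewer reads. It had 21 reads with Aβ (13 to 32.1) and 34 in the control (23.5 to 47.5), or 1.71 and 2.78 TPM. Here the intervals of the reads overlapped, and the ratio of 0.616 (0.34 to 1.09) included equality. With Oas1b, the reads came to 93 and 160 and the ratio to 0.58 (0.444 to 0.753).

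The remaining Oas1 copies were each read in 1 library only. Oas1g (100910735) had 0 reads with Aβ and 42 in the control (30.3 to 56.8), or 0 and 2.95 TPM. Oas1i (304507) showed the reverse, with 37 reads with Aβ (26.1 to 51) and 0 in the control, or 2.64 and 0 TPM. Where a row is at 0, as many as 3 reads remain possible, which for the Aβ library is 0.191 CPM, a unit of reads per library size, and for the control 0.192 CPM. Against that floor, set per library, with the reads of the other library taken as counted, Oas1g was at least 14-fold lower and Oas1i at least 12.3-fold higher with Aβ. The counting interval of the ratio, which includes the error of both libraries, is wider, reaching up to 0.0916 for Oas1g and down to 9.51 for Oas1i. Their sum was 37 reads with Aβ and 42 in the control, a ratio of 0.879 (0.549 to 1.4), so the opposite differences of the single rows were not present in the sum.

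**Figure D1:**
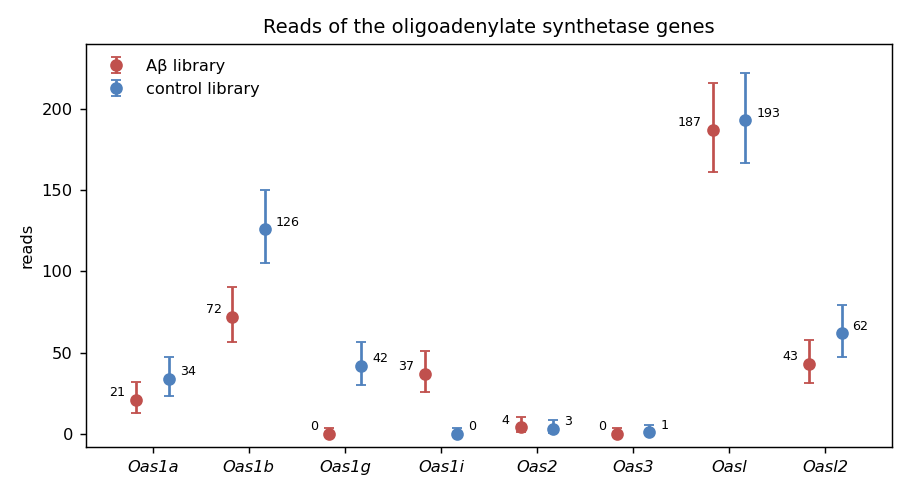
Reads (vertical axis) of the 8 genes with a row in the Aβ library (red) and the control library (blue). Points are the reads of 1 library and bars the exact Poisson 95% intervals, which cover counting error only. Oas1g has reads only in the control (42) and Oas1i only with Aβ (37), Oas1b stands at 72 and 126, and Oasl lies level at 187 and 193.

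A gene with reads in only 1 of the libraries was rare in the table. Among 13593 genes with 20 or more reads over both libraries, 29 had 0 reads in 1 of them (0.213%). Of these 29, 20 were at 0 with Aβ and 9 in the control. Only 6 of the 29 had whole read numbers (within 0.005 of a whole number), and Oas1g and Oas1i were 2 of those 6. All 8 members with a row had whole reads in both libraries, so a division of reads between copies cannot be seen in the decimals of these values. How the authors treated reads that match more than 1 copy is not stated in any source used here, and each single Oas1 value is therefore uncertain.

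The names of the copies also differ between annotations. The RefSeq table of the later GRCr8 assembly lists Oas1g as an older name of Oas1a, and the gene number that the expression table gives for Oas1g is not in it. The gene numbers of the other 7 members are. Taken as 1 gene, Oas1a and Oas1g had 21 and 76 reads, a ratio of 0.276 (0.161 to 0.452). With Oas1i added, the reads were 58 and 76 and the ratio 0.761 (0.531 to 1.09). Oas1a with Oas1i alone had 58 and 34 reads, a ratio of 1.7 (1.1 to 2.68). Which rows are summed thus moved the ratio from 0.276 to 1.7, across equality, among the groupings of Oas1a, Oas1g and Oas1i.

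Summed over the 4 Oas1 rows, which removes any exchange of reads among them, the Aβ library held 130 reads (109 to 154) and the control 202 (175 to 232). The summed levels were 8.80 and 13.52 TPM. The control was the higher, and the intervals of the sums did not overlap. The ratio was 0.642 (0.511 to 0.804). Without Oas1g it was 0.81 (0.638 to 1.03), which includes equality, and without Oas1i it was 0.459 (0.355 to 0.59). Oas1d and Oas1f, which are not members, had 0 reads with Aβ and 1 in the control each, and adding them left the ratio at 0.636 (0.506 to 0.796).

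**Figure D2:**
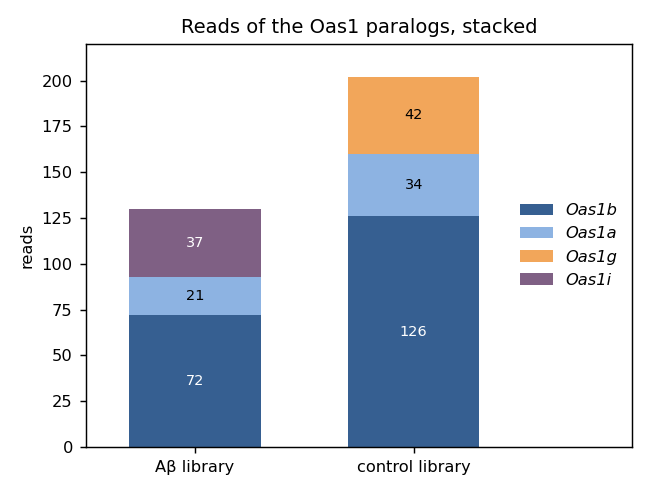
Stacked bars of reads (vertical axis, from 0) for the 4 Oas1 rows in each library, with the number of reads written in each part. The bars reach 130 and 202 reads, Oas1b makes up the largest part of both, and the upper part is Oas1i with Aβ and Oas1g in the control.

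The makeup of the Oas1 reads was similar for the copies present in both libraries. Oas1b held 55.4% of the Oas1 reads with Aβ (46.4% to 64.1%) and 62.4% in the control (55.3% to 69.1%). Oas1a held 16.2% (10.3% to 23.6%) and 16.8% (11.9% to 22.7%). The intervals of each copy overlapped between the libraries. Oas1i took 28.5% with Aβ (20.9% to 37%), and Oas1g took 20.8% in the control (15.4% to 27%).

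Oas2 and Oas3, the larger synthetases, were barely read. Oas2 (363938) had 4 reads with Aβ and 3 in the control, or 0.19 and 0.15 TPM, and its ratio of 1.33 had an interval of 0.225 to 9.08. Oas3 (494202), whose product is the largest of the synthetases, had 0 and 1 reads. Both genes were under 1 TPM in both libraries, and no difference was detectable at this depth.

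Oasl (304545), an Oas-like gene also named Oasl1, had the highest level of the family and lay level between the cultures. It had 187 reads with Aβ (161 to 216) and 193 in the control (167 to 222), or 11.01 and 11.02 TPM. The intervals overlapped almost wholly and the ratio was 0.966 (0.786 to 1.19). Oasl2 (304549), the neighbouring gene, had 43 reads with Aβ (31.1 to 57.9) and 62 in the control (47.5 to 79.5), or 1.89 and 2.72 TPM. Its reads were lower with Aβ, but the intervals overlapped and the ratio of 0.692 (0.458 to 1.04) included equality. The sum of both was 230 and 255 reads, a ratio of 0.9 (0.749 to 1.08).

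**Figure D3:**
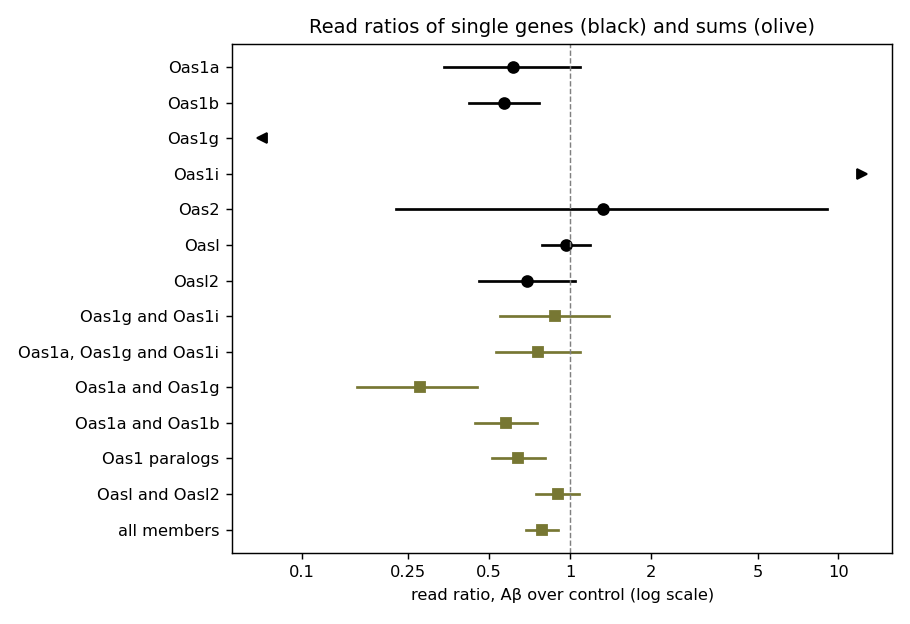
Read ratio of Aβ over control (horizontal axis, log scale) for 7 members (black circles) and for sums of members (olive squares), with 95% counting intervals as lines. Arrowheads mark Oas1g (0.0712) and Oas1i (12.3), each at 0 reads in 1 library, with that library set to the floor of 3 reads; their counting intervals, not drawn, reach 0.0916 and 9.51. Oas3, with 1 read in all, is left out, and the sum of Oas1g and Oas1i lies at 0.879.

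The family as a whole had 364 reads with Aβ (328 to 403) and 461 in the control (420 to 505). The control was the higher and the intervals did not overlap, with a ratio of 0.788 (0.685 to 0.906). Oasl and the Oas1 rows contributed differently to it. Without the Oas1 rows the ratio was 0.901 (0.752 to 1.08), and without Oasl it was 0.659 (0.542 to 0.799). The Oas1 rows made up 35.7% of member reads with Aβ (30.8% to 40.9%) and 43.8% in the control (39.2% to 48.5%). Oasl made up 51.4% (46.1% to 56.6%) and 41.9% (37.3% to 46.5%). Since the members were selected with these reads already known, the shares describe the libraries only.

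The order of the levels per length was headed by the same genes in both libraries. In the control, Oasl (11.02 TPM) stood above Oas1b (7.79 TPM), which stood above Oas1g, Oas1a and Oasl2 (2.95, 2.78 and 2.72 TPM). These last 3 did not differ beyond their counting intervals, and Oas2, Oas3 and Oas1i followed at 0.15 TPM or less. With Aβ, Oasl (11.01 TPM) again stood clear of Oas1b (4.45 TPM). The intervals of Oas1b and Oas1i (2.64 TPM) overlapped, as did those of Oas1i, Oasl2 (1.89 TPM) and Oas1a (1.71 TPM), each with its neighbour. Oas2, Oas1g and Oas3 came last at 0.19 TPM or less. No member was abundant. Oasl was above 49.3% of the genes of the table with Aβ, Oas1b above 37.6%, and the members together took 0.00232% of all reads with Aβ and 0.00294% in the control.

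For reading these differences against the table as a whole, folds were taken as TPM + 1, a pseudocount that shrinks the ratios of low genes, over the 12980 genes that reached 1 TPM in at least one library. Of the 8 members with a row, 6 reached that level. At 1.5-fold, 2 of the 6 were lower with Aβ (Oas1b and Oas1g) and 1 was higher (Oas1i), where 1.34% of all genes were lower and 1.56% higher. At 2-fold, Oas1g was lower and Oas1i higher, with 0.493% and 0.501% of all genes. The counting interval lay below 1 for Oas1b and Oas1g and above 1 for Oas1i, against 12.5% of genes below and 12% above. The members were selected with this same contrast already known, so nothing is read from these counts. In the authors' deposited table of 282 enriched gene ontology terms for 391 genes higher with Aβ, no term lists a member. As it covers only genes higher with Aβ, members that were lower could not be listed.

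The partners of the Oas enzymes differed little between the libraries. Abce1, a ribosome recycling factor first described as an inhibitor of the 2-5A system, had 4260 reads with Aβ and 4267 for the control (0.996, 0.954 to 1.04). Pde12, a phosphodiesterase that degrades 2-5A, had 155 and 169 reads (0.915, 0.731 to 1.14). Of the 5 genes of this list, Enpp1, an ectoenzyme that cleaves nucleotides, had 58 reads in each library. Only 1 of the 5 had an interval that excluded 1, Cnp, at 0.945 (0.903 to 0.99). Cnp is a myelin enzyme. All 5 ratios were below 1, and the median log2 ratio of the list was −0.08, beside 0.00 over the 12980 genes.

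Interferons themselves were hardly read. Of 10 ligand genes listed, 2 had a row, Ifna5 with 0 reads with Aβ and 1 in the control, and Ifne with 1 and 0. The receptors were present. Ifnar2, a chain of the type I interferon receptor, was at 18.33 and 20.82 TPM (0.876, 0.774 to 0.991), and Ifngr1, the ligand-binding chain for interferon-γ, at 34.08 and 41.59 TPM (0.817, 0.728 to 0.915). Ifngr2, its partner chain, went the other way at 40.33 and 35.35 TPM (1.13, 1.03 to 1.24). The 5 measured receptor genes had a median log2 ratio of 0.00, with 3 higher and 2 lower. Il10rb, a chain shared with interleukin-10 receptors, was at 1.18 (0.945 to 1.46).

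Stat2, Irf9 and Irf7, which act on the response element or amplify interferon production, lay near equality. Stat2 had 905 reads with Aβ and 933 for the control (0.967, 0.882 to 1.06), and Irf9 284 and 314 (0.902, 0.766 to 1.06). Irf7, the amplifier of type I interferon production, had 72 and 76 (0.945, 0.675 to 1.32). The intervals of these 3 genes included 1. Of 12 signalling genes 5 were higher and 7 lower, and their median log2 ratio was −0.06. The interval excluded 1 on the higher side for 2 of them and on the lower side for 1. These included Irf3, which is activated by the RNA sensors, at 1.13 (1.03 to 1.24) and Irf2, an antagonist of Irf1, at 0.883 (0.789 to 0.987). The intervals of Irf8 (1.33, 0.9 to 1.98) and Irf5 (1.19, 0.91 to 1.57), factors of myeloid cells, included 1. The brakes of the pathway had a median of −0.09 over 7 genes, and no interval excluded 1. Usp18, which holds back receptor signalling, had 80 and 93 reads (0.858, 0.628 to 1.17). Isg15, a ubiquitin-like protein that stabilises Usp18 in human cells, had 37 and 46 reads (0.802, 0.506 to 1.26). The cytokine signal inhibitor Socs1 (1.29, 0.654 to 2.59) and the phosphatase gene Ptpn2 (1.1, 0.981 to 1.23) were above 1 within counting error.

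Other sensors of foreign nucleic acid also lay close to equal. The 8 measured sensors had a median log2 ratio of −0.03, and no interval excluded 1. Ddx58, the gene of the RNA helicase RIG-I, had 261 and 286 reads (0.91, 0.767 to 1.08), and Dhx58, a related helicase, 65 and 75 (0.864, 0.61 to 1.22). Tlr8, an endosomal receptor of single-stranded RNA, was at 1.15 (0.851 to 1.56), and the helicase gene Ddx60, under 1 TPM in both libraries, at 0.833 (0.48 to 1.4). Of the 7 measured adaptors and kinases 3 were higher and 4 lower, and only Trim25, the ubiquitin ligase that acts on RIG-I, had an interval that excluded 1, at 294 and 376 reads (0.78, 0.667 to 0.911). Tmem173, the gene of the adaptor STING, was at 1.38 (0.868 to 2.21) and the Toll-like receptor adaptor Ticam1 at 1.15 (0.815 to 1.63). Ikbke, a kinase that activates Irf3, was under 1 TPM and at 1.04 (0.569 to 1.9). Among 12 proteins that bind or edit double-stranded RNA the median was −0.02. Eif2ak2, which encodes the kinase PKR, was at 27.82 and 30.03 TPM (0.919, 0.843 to 1), and Dgcr8, of the microRNA processor, at 26.92 and 33.55 TPM (0.796, 0.736 to 0.86). The antiviral protein gene Zc3hav1 was at 0.924 (0.861 to 0.992) and the RNA editing enzyme Adarb1 at 1.07 (0.908 to 1.26).

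Of the remaining interferon-induced effector genes, 23 of 30 measured were lower with Aβ and 7 higher. Their median log2 ratio was −0.23. Over all genes 49.5% were lower. Of the 30, 6 (20%) had an interval below 1 and 3 had one above 1, where 12.5% of all genes were below and 12% above. The 4 genes named next had the largest ratios in either direction at 20 or more reads, so most genes with an interval below 1 are not named. Mx2, an antiviral GTPase, was at 0.579 (0.489 to 0.684), and Ifi44l had 23 and 36 reads (0.637, 0.361 to 1.11), beside 0.57 for Oas1b and 0.616 for Oas1a. Rsad2, the radical SAM enzyme viperin, was higher with Aβ on 37 and 17 reads (2.17, 1.19 to 4.11). So was Ifit3, on 33 and 14 reads, with a ratio of 2.35 (1.22 to 4.75). The effectors thus held genes on both sides of equality, most of them lower. Of the Oas rows, only Oas1i, whose single value is uncertain, and Oas2, on 4 and 3 reads, were above it.

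**Figure D4:**
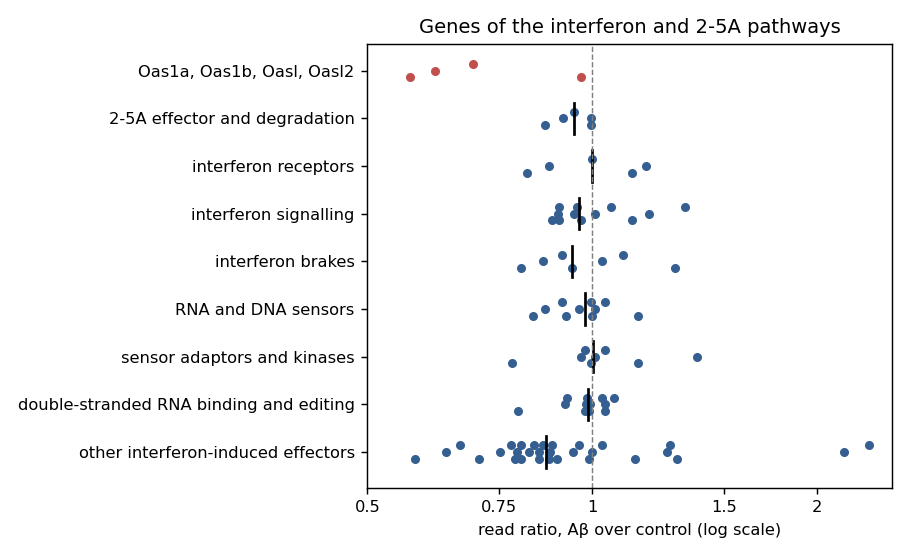
Read ratio of Aβ over control (horizontal axis, log scale) for single genes with 20 or more reads over both libraries, by list; black ticks are list medians. Red points are Oas1b, Oas1a, Oasl2 and Oasl, from 0.57 to 0.966, and the 30 other interferon-induced effectors with that many reads run from 0.579 to 2.35. Oas1g (42 reads, all in the control) and Oas1i (37 reads, all with Aβ) also have that many reads but no ratio, and are not drawn. These are not quite the 30 of the text, which were chosen by TPM, since Gbp4 is drawn here and Ifitm1 is not.

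The cells of the cultures bear on a gene family that immune cells also express. In bulk libraries, fewer cells of a type and less RNA per cell cannot be told apart. Among 6 markers of OPCs, Olig1 was at 1420.50 and 1557.38 TPM, while Sox10 was at only 0.84 and 1.22 TPM. The interval was below 1 for 4 of the 6 and above 1 for Cspg4, with 540 and 303 reads (1.78, 1.54 to 2.05). Markers of microglia and macrophages were also present. Of 9 measured, 6 were lower with Aβ and 3 higher, and 3 had an interval below 1 and 0 above it. The summed level of the 10 markers was 221 TPM with Aβ against 270.0 TPM for the control (ratio 0.818), and none was at 0. C1qa, a complement gene of microglia, had 388 and 576 reads (0.672, 0.589 to 0.765), C1qb was at 0.796 (0.674 to 0.94) and Aif1 at 0.778 (0.635 to 0.953). In summed TPM these 3 held the whole difference, and the other 7 markers summed to 88.4 and 87.2 TPM (ratio 1.01). That split was made after the values were seen, and such a sum is set mostly by the genes with high levels. Those 7 went both ways, and all their intervals included 1. The integrin gene Itgam was at 1.12 (0.986 to 1.27), Cd68 at 1.08 (0.921 to 1.27) and Ptprc at 1.02 (0.862 to 1.22). Below 1 were Cx3cr1 on 15 and 27 reads (0.554, 0.274 to 1.08) and P2ry12 on 7 and 14 (0.499, 0.17 to 1.32). So were Tmem119 (0.864, 0.548 to 1.36) and Csf1r (0.941, 0.863 to 1.03). Astrocyte markers summed to 1754 and 1760 TPM, though the 5 genes went both ways. The interval was below 1 for 3 (Aqp4 at 0.849, Gfap at 0.887 and Aldh1l1 at 0.907). It was above 1 for 2 (Gja1 at 1.06 and Slc1a3 at 1.02). Neuron markers summed to 127 and 124 TPM, most of it Map2 at 105.18 and 107.20 TPM (0.972, 0.938 to 1.01). Each of the others was at 10.38 TPM or less in both libraries. The median log2 ratio of the 5 neuron markers was 0.26. Rbfox3 stood at 1.85 (1.06 to 3.31), Snap25 at 1.5 (1.16 to 1.96) and Syt1 at 0.49 (0.297 to 0.79). Endothelial markers (0.14 and 0.09 TPM) and lymphocyte markers (0.05 TPM in each) were near 0, and pericyte and fibroblast markers summed to 1.74 and 3.10 TPM. The part of these cell types in the differences of the Oas genes was not tested.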

How the data were processed

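Bowtie2 and the rat build Rnor_6.0 are named per the submitters' processing notes. No source used here states how reads were counted or on which annotation. The authors' deposited table gives estimated counts of reads per gene, TPM and FPKM. A deposited column named normalized read count holds the count rounded up and was treated as a score, not used. Ratios were computed here from reads per library total, with exact Clopper-Pearson intervals, conditional on the summed rounded reads. The intervals were checked on simulated Poisson counts, the model they assume, so the check does not cover copied reads or variation between cultures. Pathway and marker lists (16) came from general knowledge. The members and lists were chosen with earlier results of these data known. Named genes were all members, 7 set partners and regulators and, in each list, the 4 with the largest ratios at 20 or more reads; the cell type markers are mostly given as sums, and some genes are not reported here. List medians used log2 read ratios of genes that reached 1 TPM in at least one library, for lists with at least 3 such genes. Alternatives were size factors, TMM (edgeR 4.0.16), TPM, pseudocounts, filters and other sums. Promoter windows and gene names came from RefSeq tables of another build (GRCr8). Windows were aligned globally with Biopython 1.88 (match 1, mismatch −1, gap opening −3, extension −0.5). Other tools were Python 3.11.15 and SciPy 1.17.1.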

Additional observations from a re-analysis of the deposited data

How the results depend on the processing

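The read ratios of single members with a ratio or bound stayed inside their counting intervals under all 29 alternatives tried for them (size factors, TMM, TPM and pseudocounts of reads). So did the medians of 12 gene lists under all 84 alternatives, taking order-statistic intervals of the list or, for short lists, its range. These checks were weak. Size factors were 1 in both libraries and TMM factors 0.999946 with Aβ and 1.00005 in the control, so rescaling could hardly move a ratio. For Oas1g and Oas1i only pseudocounts were tried, and their intervals reach down to 0 or have no upper bound. A median can hardly leave the range of its own short list. The ratio of the Oas1 sum, 0.642, moved to 0.459 without Oas1i and to 0.81 without Oas1g, sums chosen after seeing the data. The ratio over all members, 0.788, moved to 0.659 without Oasl, the member with the most reads. Counts over all genes depended on how low values were handled. With a pseudocount of 0.1 TPM, 340 genes were 1.5-fold lower and 346 higher, in place of 174 and 202, and 132 were 2-fold lower and 118 higher, in place of 64 and 65. With at least 20 reads in place of the TPM filter, 37 were 2-fold lower and 42 higher. At 0.5 TPM the counts at 2-fold were 93 and 77. At 2-fold, lower genes were thus more at the smaller pseudocounts, where the main counts were nearly equal. At 1.5-fold, higher genes were more at each pseudocount, with 257 lower and 272 higher at 0.5 TPM. None of the 47 alternatives for ratios of members and their sums lay on the other side of 1 (the sum of Oas1a and Oas1i alone, at 1.7, was not among them), and none of the 84 list medians took the opposite sign at 2 decimals. No paired analysis was possible because each condition had 1 library. Depth limits Oas2 and Oas3, with 7 and 1 reads over both libraries.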
